A study of Mus musculus with 9 samples.

Results

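The 51 genes described here encode the proteins that copy chromosomal DNA and the enzymes that make or salvage its deoxynucleotides. They were chosen by name, as the genes whose symbol in the count files equals a symbol on a list of 51, and all 51 were present among the 32137 genes of each file. All 51 passed the filter on low counts and were among the 17011 genes tested.

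Before S phase, the origin recognition complex, Cdc6 and Cdt1 load the ring-shaped Mcm helicase onto DNA, and Cdc45, the GINS complex and Mcm10 turn it into a moving helicase. Polymerase alpha and primase start each strand, polymerases delta and epsilon extend it on the sliding clamp Pcna, and fork protection proteins, chromatin assembly factors and maintenance methylation follow the fork. Most bile duct cells of the adult liver are quiescent and transcribe these genes weakly, whereas bile duct organoids divide in expansion medium, and the E2F transcription factors are the best known activators of these genes at entry into S phase.

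RNA was sequenced from sorted cells of differentiated mouse bile duct organoids in 9 libraries. All came from organoids of 1 male mouse of mixed genetic background with the genotype Axin2CreERT2+/-; R26-LSL-tdTom+/-, so the replicates are repeated cultures of 1 line and not animals, and p-values measure the spread between these cultures. CreERT2 is a recombinase that works only in the presence of 4-hydroxytamoxifen (4-OHT). Here it is made where the Wnt target gene Axin2 is transcribed, and it switches on the red reporter tdTom, so tdTom marks cells (and their progeny) in which Axin2 was active while 4-OHT was present. After 2 to 4 days of expansion and 11 days of differentiation, every culture received dexamethasone (3 uM) and 4-OHT (500 nM) for the last 24 h. The untreated group held tdTom-negative cells of cultures without Rspo1. The Rspo1 tdTom-negative and Rspo1 tdTom-positive groups held the sorted fractions of cultures that also received Rspo1, a secreted amplifier of Wnt signalling, at 100 ng/ml in those 24 h. Each group has 3 libraries, one each from passages 5, 6 and 10, and there is no group of tdTom-positive untreated cells, so the effect of Rspo1 and that of the sort cannot be told apart in the tdTom-positive group.

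Total counts ranged from 23423979 to 37351448 per library. Axin2 itself averaged 3.01 ± 2.56 CPM in untreated cells, 88.7 ± 40.6 CPM in Rspo1 tdTom-negative cells and 106 ± 42.3 CPM in Rspo1 tdTom-positive cells (SD, n = 3 each); CPM are counts relative to the TMM-scaled library total. It was higher than untreated in both fractions, and the fractions did not differ past the threshold (log2 fold change 0.31 ± 0.22, SE, adjusted p = 0.28, edgeR). The 8 biliary markers checked (Krt19, Krt7, Epcam, Sox9, Spp1, Krt8, Krt18 and Cldn7) were present in every library and summed to between 10594 and 16261 CPM. The hepatocyte list summed to between 169 and 545 CPM, with 1 to 4 of its 8 genes at 0, the immune list to between 5.51 and 23.3 CPM, the fibroblast list to between 0.133 and 1.01 CPM and the endothelial list to between 0.0739 and 0.339 CPM. The biliary sum was 10594 to 10925 CPM in the tdTom-positive libraries and 11711 to 16261 CPM in the other 6. The 8 markers did not all move with this sum. In tdTom-positive against untreated cells, 2 were higher and 1 lower past the threshold (median log2 fold change -0.11). Against tdTom-negative cells, 5 were lower in tdTom-positive cells and none higher (median -0.43). The part of these differences in the results was not tested.

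The replication and nucleotide genes were higher in Rspo1-treated cells of both fractions than in untreated cells, and most of them highest in the tdTom-positive fraction. In tdTom-positive cells against untreated cells, 43 of the 51 rose and none fell (edgeR quasi-likelihood F-test with passage as a block, adjusted p under 0.05 over all genes tested); of all genes tested, 6.44% rose and 6.77% fell. The median log2 fold change of the 51 was 1.20, where that of all genes tested was -0.00. In Rspo1 tdTom-negative cells against untreated cells, 37 rose and 3 fell (Orc3, Orc4 and Rfc1), where 15.5% of all genes rose and 20.0% fell, and the median of the 51 was 0.80 (all genes, -0.01). Between the fractions, 24 were higher in tdTom-positive cells and none lower, where 21.5% of all genes were higher and 17.4% lower, and the median of the 51 was 0.38 (all genes, 0.03). The 3 comparisons share libraries in pairs, so their counts are not independent. In bulk RNA, fewer cells of a type and less RNA per cell cannot be told apart.

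By group means, 37 of the 51 genes stood in the order untreated, tdTom-negative, tdTom-positive from lowest to highest. Another 8 were highest in tdTom-negative cells and lowest in untreated cells, and 4 were lowest in tdTom-negative cells and highest in tdTom-positive cells. Within each passage the picture was alike: 46 genes were higher in tdTom-positive than untreated cells at all 3 passages, 39 were higher in tdTom-negative than untreated cells at all 3, and 36 were higher in tdTom-positive than tdTom-negative cells at all 3. In the fit, 49, 45 and 44 of the 51 genes had a positive log2 fold change in these 3 comparisons. Of the 17011 genes tested, 8471, 8400 and 8840 did, and their counts passage by passage are not given here. The medians over the 51 at passages 5, 6 and 10 were 1.18, 0.98 and 1.32 for tdTom-positive against untreated cells. They were 0.78, 0.41 and 0.98 for tdTom-negative against untreated cells and 0.32, 0.59 and 0.31 for tdTom-positive against tdTom-negative cells.

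**Figure D1:**
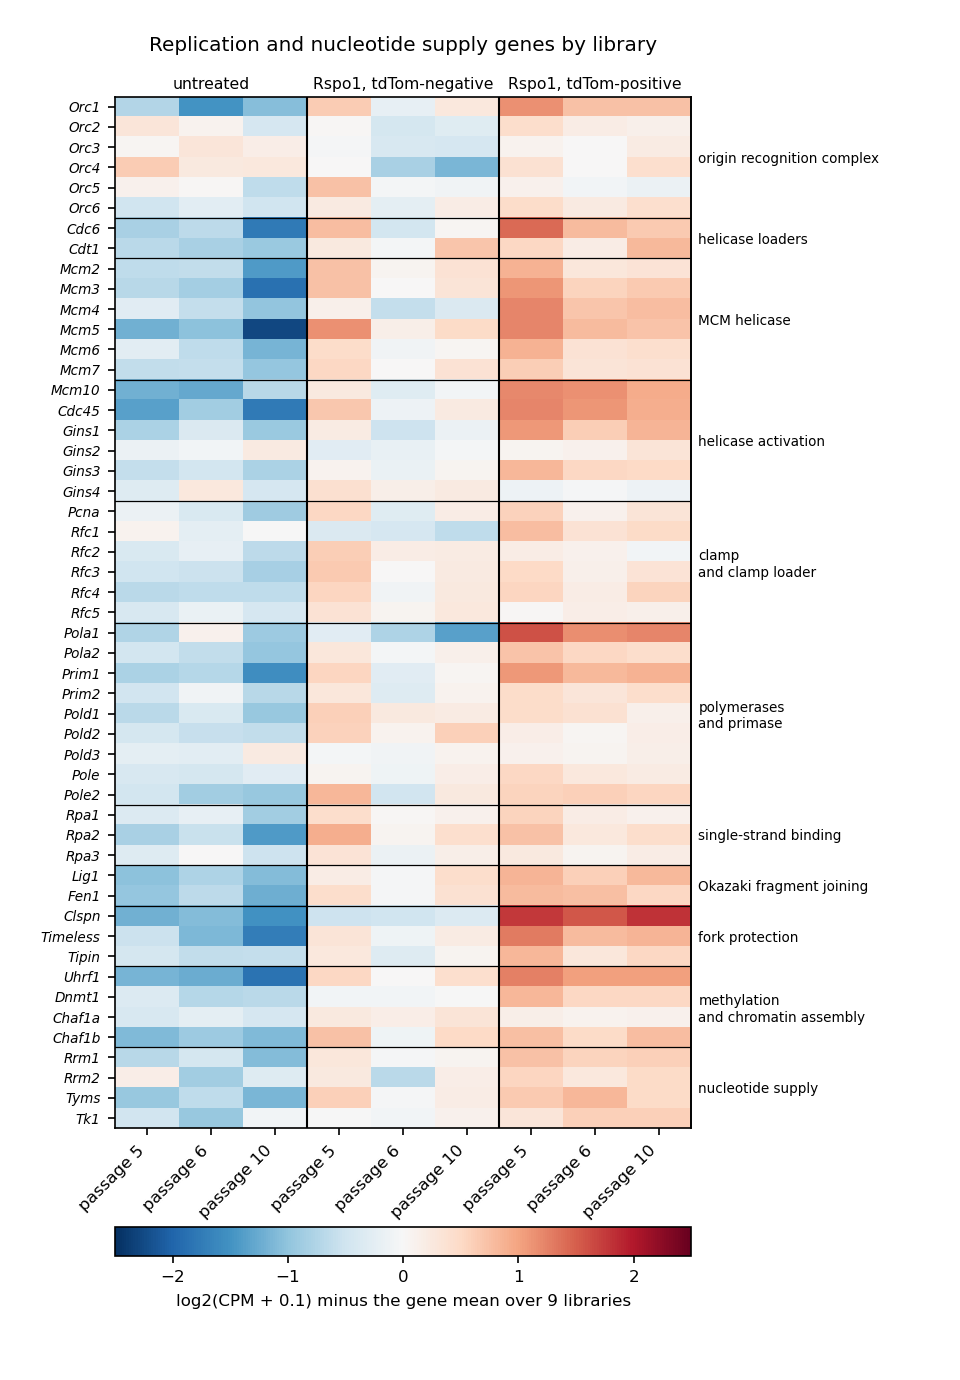
Each row is 1 of the 51 genes, ordered by role, and each column 1 of the 9 libraries; colour gives log2(CPM + 0.1) minus the mean of that gene over the 9 libraries. Most rows run from blue in the untreated libraries to red in the tdTom-positive libraries. In Orc2, Orc3, Orc4, Orc5, Gins2, Gins4 and Pold3 the libraries of these groups overlap.

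As a description, the promoters of these genes were searched for short letter strings. RefSeq (GRCm38.p6) windows, from 250 bases before to 50 after a gene's start, were available for 43 of the 51 genes (not for Mcm4, Gins1, Gins2, Gins4, Rfc2, Prim2, Pole and Tipin). E2F-type letters (TTTCCCGC, TTTGGCGC, TTTCGCGC or TTTGCCGC, on either strand, where a letter string and its neighbour on the other strand may overlap) were found for 18 of the 43 (41.9%) and for 2.61% of the 27025 genes with a window. The table lists 1 window for 35 of the 43 genes and 2 or 3 for the other 8, and a gene was counted when any of its windows held the letters. In the first listed window alone they were found for 15 of the 43 (34.9%) and for 2.32% of all genes; Dnmt1, Lig1 and Uhrf1 hold them only in a later window. Counted over any window, CCAAT was found for 62.8% of the 43 and 41.1% of all, TTTGAA or TTCGAA for 18.6% and 21.7%, and the Tcf/Lef-type ATCAAAG for 0 of the 43 and 4.29% of all. Of the 18 genes with E2F-type letters, 16 rose in tdTom-positive against untreated cells, and of the 25 without them 21 did; by the first listed window it was 13 of 15 and 24 of 28. A match is a string of letters and not a measured binding site.

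The stretches below show how the letters lie in 4 genes that hold them: Mcm5, with the largest rise among the helicase subunits, Mcm6 of the same ring, with 3 matches, Orc1 of the origin complex, and Pola1 of polymerase alpha, which differed widely between the fractions. Each is the first listed window, cut to the 250 bases before the start (GRCm38, 5′ to 3′ on the gene's strand), with E2F-type letters in capitals. Cdc45, which also rose, holds none of these letters in its window.
Mcm5 (chr8:75109259-75109508, + strand): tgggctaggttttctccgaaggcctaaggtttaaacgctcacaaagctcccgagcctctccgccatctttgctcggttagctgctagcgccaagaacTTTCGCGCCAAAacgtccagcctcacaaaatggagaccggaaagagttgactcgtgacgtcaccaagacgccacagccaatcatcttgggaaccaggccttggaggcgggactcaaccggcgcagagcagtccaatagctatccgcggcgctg
Mcm6 (chr1:128359706-128359955, - strand): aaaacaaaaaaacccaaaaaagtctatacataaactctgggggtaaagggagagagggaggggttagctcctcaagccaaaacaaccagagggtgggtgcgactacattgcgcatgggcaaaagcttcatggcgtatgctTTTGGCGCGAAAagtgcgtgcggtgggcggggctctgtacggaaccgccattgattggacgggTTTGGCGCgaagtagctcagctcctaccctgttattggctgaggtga
Orc1 (chr4:108579204-108579453, + strand): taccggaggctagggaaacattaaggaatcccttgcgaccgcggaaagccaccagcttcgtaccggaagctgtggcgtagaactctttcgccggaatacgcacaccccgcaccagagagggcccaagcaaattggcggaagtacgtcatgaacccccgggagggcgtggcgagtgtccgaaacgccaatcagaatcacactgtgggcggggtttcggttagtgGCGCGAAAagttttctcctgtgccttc
Pola1 (chrX:93632156-93632405, - strand): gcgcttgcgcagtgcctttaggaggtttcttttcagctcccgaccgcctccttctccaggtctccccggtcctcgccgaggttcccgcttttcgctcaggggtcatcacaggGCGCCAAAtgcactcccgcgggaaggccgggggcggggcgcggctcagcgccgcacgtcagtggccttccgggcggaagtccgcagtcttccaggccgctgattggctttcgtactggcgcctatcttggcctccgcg

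In Mcm5 2 matches overlap on opposite strands, with first bases 153 and 149 bases before the start, and in Mcm6 the overlapping pair lies at 110 and 106 bases before it and another string at 47. In Mcm3 and Clspn the letters lie just after the start, shown as 30 bases around them.
Mcm3 (chr1:20820266-20820295, - strand): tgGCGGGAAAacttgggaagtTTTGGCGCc
Clspn (chr4:126556999-126557028, + strand): ggGCGCGAAAgctcgaacttcgctgccgag

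The origin recognition complex marks the sites where the helicase is loaded, and its 6 subunits moved apart from each other. Orc1, the subunit whose level is known to follow the cell cycle, rose from 1.54, 0.870 and 1.21 CPM in the untreated libraries of passages 5, 6 and 10 to 4.13, 2.26 and 3.18 CPM in tdTom-negative cells and 5.93, 4.45 and 4.45 CPM in tdTom-positive cells. Its 3 groups did not overlap, and the log2 fold change against untreated cells was 2.05 ± 0.22 (SE, adjusted p = 8.67e-05, edgeR) in tdTom-positive cells and 1.40 ± 0.22 (adjusted p = 0.000916) in tdTom-negative cells. Orc6 read 16.2, 19.2 and 16.1 CPM in untreated, 26.9, 19.3 and 26.0 CPM in tdTom-negative and 31.6, 26.9 and 30.8 CPM in tdTom-positive cells, where the fractions overlapped by 1 library. Its log2 fold changes were 0.78 ± 0.15 (adjusted p = 0.00599) and 0.47 ± 0.15 (adjusted p = 0.0331).

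Orc2, Orc3, Orc4 and Orc5, the other core subunits, did not pass the threshold in tdTom-positive against untreated cells, with log2 fold changes from -0.10 to 0.25. Orc4 read 22.9, 17.4 and 17.4 CPM in untreated cells, 14.7, 8.23 and 6.52 CPM in tdTom-negative cells and 19.1, 14.7 and 19.5 CPM in tdTom-positive cells. All 3 tdTom-negative libraries lay below all 3 untreated ones, a fall of -1.01 ± 0.20 (adjusted p = 0.00337), while untreated and tdTom-positive libraries overlapped (-0.10 ± 0.19, adjusted p = 0.81). Orc3 fell in tdTom-negative cells too, from 22.9, 27.3 and 24.7 CPM to 21.7, 16.7 and 16.3 CPM (-0.46 ± 0.15, adjusted p = 0.0352), and read 23.5, 22.2 and 25.3 CPM in tdTom-positive cells. In the fit with an offset for GC content and length described further on, neither fall was past the threshold (Orc4 -0.33, adjusted p = 0.125; Orc3 -0.03, adjusted p = 0.866). With that offset Orc5 rose in tdTom-negative cells (0.83, adjusted p = 0.00494), where without it the value was 0.36 (adjusted p = 0.122).

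The helicase loaders Cdc6 and Cdt1 both rose. Cdc6, an ATPase that brings the helicase to the origin complex, read 5.79, 6.42 and 2.91 CPM in untreated cells, 17.5, 7.37 and 10.5 CPM in tdTom-negative cells and 27.2, 17.6 and 16.1 CPM in tdTom-positive cells. The untreated libraries lay below all others, and the 2 Rspo1 fractions overlapped because of the passage 5 tdTom-negative library. The log2 fold changes were 2.01 ± 0.26 (adjusted p = 0.000396) in tdTom-positive and 1.21 ± 0.26 (adjusted p = 0.0052) in tdTom-negative cells. Cdt1, the partner that geminin holds inactive, read 13.4, 12.1 and 11.2 CPM in untreated, 25.2, 20.7 and 34.6 CPM in tdTom-negative and 30.3, 24.1 and 37.4 CPM in tdTom-positive cells. It rose by 1.29 ± 0.17 (adjusted p = 0.000426) and 1.10 ± 0.17 (adjusted p = 0.000819), and the fractions, which overlapped, differed by 0.19 ± 0.16 (adjusted p = 0.375). With the offset the rises were 1.33 and 0.70, and Cdt1 was higher in tdTom-positive than tdTom-negative cells by 0.63 (adjusted p = 0.0148).

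All 6 subunits of the Mcm helicase rose in tdTom-positive against untreated cells, with log2 fold changes from 1.15 (Mcm7) to 2.37 (Mcm5). In tdTom-negative cells 5 of the 6 rose, from 0.82 (Mcm6) to 2.08 (Mcm5). Mcm5 read 19.8, 22.2 and 9.38 CPM in untreated cells, 101, 50.2 and 63.9 CPM in tdTom-negative cells and 106, 78.6 and 74.9 CPM in tdTom-positive cells. Its untreated libraries were the lowest of the 9, and the Rspo1 fractions overlapped. The fold was 5.16 in tdTom-positive cells (log2 2.37 ± 0.24, adjusted p = 7.55e-05) and 4.22 in tdTom-negative cells (log2 2.08 ± 0.24, adjusted p = 0.000244), the largest rise of the 51 genes in the tdTom-negative fraction.

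The other subunits that rose in both fractions had smaller folds. Mcm3 read 31.8, 28.6 and 14.1 CPM in untreated, 86.2, 52.2 and 64.6 CPM in tdTom-negative and 111, 76.0 and 80.7 CPM in tdTom-positive cells, with log2 fold changes of 1.88 ± 0.21 (adjusted p = 0.000121) and 1.47 ± 0.21 (adjusted p = 0.000498). Mcm2 read 42.3, 43.1 and 24.7 CPM, then 109.8, 69.0 and 85.2 CPM, then 121, 80.7 and 83.8 CPM in the same order of groups, and rose by 1.37 ± 0.18 (adjusted p = 0.000451) and 1.27 ± 0.18 (adjusted p = 0.000545). Both genes had untreated libraries below all others and fractions that overlapped.

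Mcm6 read 81.6, 63.0 and 44.2 CPM in untreated, 135, 92.0 and 102 CPM in tdTom-negative and 181, 126 and 132 CPM in tdTom-positive cells, and rose by 1.23 ± 0.14 (adjusted p = 0.000144) and 0.82 ± 0.14 (adjusted p = 0.00142). Mcm7 read 50.8, 51.3 and 39.8 CPM, then 111, 77.9 and 99.8 CPM, then 119.6, 96.8 and 99.5 CPM, and rose by 1.15 ± 0.14 (adjusted p = 0.000239) and 1.02 ± 0.14 (adjusted p = 0.000441). Again only the fractions overlapped.

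Mcm4 was the subunit whose smaller rise in the tdTom-negative fraction did not pass the threshold. It read 35.1, 28.4 and 21.7 CPM in untreated cells, 46.6, 28.5 and 33.6 CPM in tdTom-negative cells and 99.7, 69.7 and 73.5 CPM in tdTom-positive cells. The first 2 groups overlapped and the tdTom-positive libraries stood above both. Against untreated cells the log2 fold change was 1.51 ± 0.13 (adjusted p = 2.46e-05) in tdTom-positive cells and 0.34 ± 0.13 (adjusted p = 0.0614) in tdTom-negative cells. Between the fractions Mcm4 was higher in tdTom-positive cells by 1.17 ± 0.13 (adjusted p = 0.000256) and Mcm6 by 0.42 ± 0.14 (adjusted p = 0.0325). Mcm2, Mcm3, Mcm5 and Mcm7 differed between the fractions by 0.11 to 0.40 without passing the threshold. With the offset for GC and length, Mcm4 also passed in tdTom-negative against untreated cells (0.52, adjusted p = 0.0104). Between the fractions the offset ended the call of Mcm6 (0.26, adjusted p = 0.177), and Mcm2 (0.54, adjusted p = 0.0382) and Mcm3 (0.68, adjusted p = 0.0237) passed. The subunit Mcm7 shares 12.6% of its exon bases with Ap4m1 on the other strand and with Mir93.

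**Figure D2:**
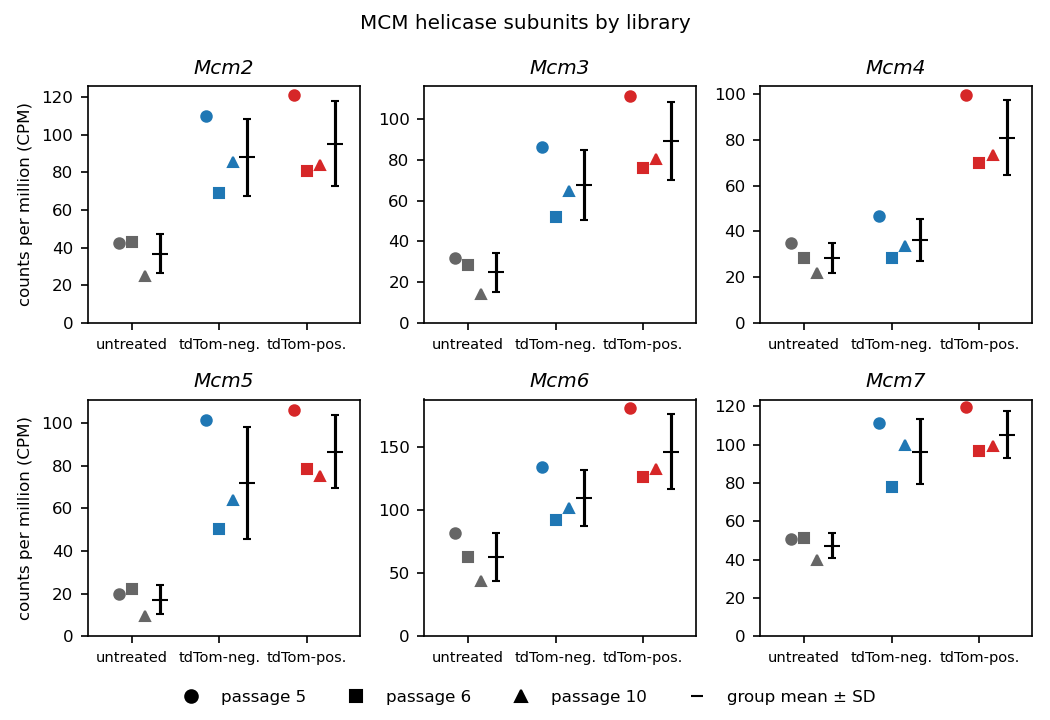
CPM of the 6 helicase subunits in each library, by group, with symbols for passage and the group mean ± SD (n = 3) in black; the axes start at 0. Untreated libraries lie lowest for each subunit except Mcm4, whose untreated and tdTom-negative libraries overlap.

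The factors that activate the loaded helicase included some of the largest rises. Cdc45, which joins Mcm2-7 and GINS in the active helicase, read 2.49, 3.54 and 1.87 CPM in untreated cells, 10.6, 6.01 and 7.66 CPM in tdTom-negative cells and 15.5, 14.2 and 12.5 CPM in tdTom-positive cells. No group overlapped another, and the log2 fold changes were 2.42 ± 0.24 (adjusted p = 5.89e-05) and 1.63 ± 0.24 (adjusted p = 0.000704). Mcm10, a scaffold needed for origin firing, read 3.05, 2.88 and 4.37 CPM in untreated cells, 8.49, 5.72 and 6.77 CPM in tdTom-negative cells and 16.6, 15.8 and 13.7 CPM in tdTom-positive cells, again without overlap. It rose by 2.17 ± 0.21 (adjusted p = 4.46e-05) and 1.02 ± 0.21 (adjusted p = 0.00368) and was higher in tdTom-positive than tdTom-negative cells by 1.14 ± 0.20 (adjusted p = 0.00155).

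The 4 GINS subunits, which form 1 complex, did not move alike. Gins1 and Gins3 rose in tdTom-positive cells, by 1.58 and 1.26 on the log2 scale. Gins3 also rose in tdTom-negative cells (0.62, adjusted p = 0.0379), a call that ended with the offset (0.48, adjusted p = 0.108). Gins2 read 46.5, 49.1 and 60.2 CPM in untreated cells, 42.7, 45.7 and 49.8 CPM in tdTom-negative cells and 54.5, 55.8 and 64.4 CPM in tdTom-positive cells, so untreated cells overlapped both fractions (0.17 ± 0.10, adjusted p = 0.348, for tdTom-positive cells). Its -0.17 in tdTom-negative against untreated cells (adjusted p = 0.235) became a called fall with the offset (-0.39, adjusted p = 0.0185). Gins4 read 20.8, 31.0 and 19.2 CPM in untreated, 34.4, 28.7 and 30.1 CPM in tdTom-negative and 23.6, 25.4 and 23.8 CPM in tdTom-positive cells. Untreated libraries overlapped both fractions (0.05 ± 0.16, adjusted p = 0.888, for tdTom-positive cells), and the fractions did not overlap but differed without passing the threshold (-0.36 ± 0.16, adjusted p = 0.0981). Gins2 shares 67.3% of its exon bases with Gse1 on the other strand. The strand setting of the counting is not given in the sources used here. It is therefore not known how reads in the shared bases were counted.

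Pcna, the sliding clamp, had the highest level per length of the 51 genes, with a mean of 42.0 over the 9 libraries in the deposited FPKM; Mcm7 (27.9) and Mcm6 (24.3) came next, and Orc1 was lowest at 1.03. In CPM, Pcna read 55.3, 46.9 and 33.2 in untreated cells, 88.2, 49.3 and 69.9 in tdTom-negative cells and 91.1, 66.0 and 76.6 in tdTom-positive cells. The tdTom-positive libraries lay above all untreated ones and the tdTom-negative ones did not. Pcna rose by 0.79 ± 0.17 (adjusted p = 0.00894) in tdTom-positive and 0.60 ± 0.17 (adjusted p = 0.017) in tdTom-negative cells. With the offset the second value was 1.02 (adjusted p = 0.00205). The first call was lost without the passage 10 tdTom-positive library (adjusted p = 0.0535). Copies of Pcna exist as processed pseudogenes, and the handling of reads that match more than 1 place is not given in the sources used here.

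The 5 subunits of replication factor C, which loads the clamp, all rose in tdTom-positive cells, with log2 fold changes of 0.43 (Rfc5), 0.49 (Rfc2), 0.60 (Rfc1), 0.95 (Rfc3) and 1.09 (Rfc4). In tdTom-negative cells Rfc2, Rfc3, Rfc4 and Rfc5 rose and Rfc1, the large subunit, fell. Rfc2 read 33.1, 37.6 and 27.4 CPM in untreated, 65.8, 49.3 and 49.5 CPM in tdTom-negative and 49.2, 46.7 and 41.4 CPM in tdTom-positive cells, with tdTom-negative libraries highest. The difference between the fractions was not past the threshold (-0.26 ± 0.13, adjusted p = 0.133), and with the offset it was 0.03 (adjusted p = 0.882). Rfc1 read 51.2, 40.9 and 47.9 CPM in untreated cells, 38.0, 36.1 and 31.0 CPM in tdTom-negative cells and 82.5, 62.4 and 67.5 CPM in tdTom-positive cells. The 3 groups did not overlap, with tdTom-negative lowest (-0.41 ± 0.12, adjusted p = 0.021) and tdTom-positive above tdTom-negative by 1.01 ± 0.12 (adjusted p = 0.000312). The offset for GC and length brought the tdTom-negative fall of Rfc1 to -0.02 (adjusted p = 0.895), and its difference between the fractions was 0.62 (adjusted p = 0.00297).

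Polymerase alpha and primase make the RNA-DNA primers. Pola1, the catalytic subunit of polymerase alpha, read 4.99, 9.13 and 4.43 CPM in untreated cells, 6.95, 4.94 and 3.22 CPM in tdTom-negative cells and 25.7, 19.0 and 19.9 CPM in tdTom-positive cells. The tdTom-positive libraries lay above all others, while the other 2 groups overlapped. It was 3.57-fold higher than in untreated cells (log2 1.83 ± 0.26, adjusted p = 0.000726) and 4.38-fold higher than in tdTom-negative cells (log2 2.13 ± 0.26, adjusted p = 0.000345). In tdTom-negative against untreated cells it changed by -0.30 ± 0.27 (adjusted p = 0.412).

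Its partner subunits followed the common order. Pola2, the accessory subunit, averaged 12.7, 22.1 and 29.9 CPM in untreated, tdTom-negative and tdTom-positive cells, and the primase catalytic subunit Prim1 averaged 6.12, 13.3 and 23.1 CPM. Both rose in both fractions. Prim2, the large primase subunit, rose in tdTom-positive cells alone among the tests against untreated cells (0.81, and 0.44 in tdTom-negative cells), and its difference between the fractions was not past the threshold (0.37). With the offset Prim2 also rose in tdTom-negative cells (0.74, adjusted p = 0.0247), and the fractions differed by 0.04. The offset ended the call of Prim1 between the fractions (0.81 without it, 0.45 with it, adjusted p = 0.112).

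Of the replicative polymerases, Pold1, the catalytic subunit of polymerase delta, rose in both fractions (0.99 and 1.02). With the offset the rises were 1.02 and 0.63, and the fractions differed by 0.39 (adjusted p = 0.0579), against -0.03 without it. Pold2, a structural subunit, had its highest mean in tdTom-negative cells, at 50.8, 36.4 and 51.7 CPM, against 25.05, 23.01 and 22.3 CPM in untreated cells and 38.1, 35.5 and 38.1 CPM in tdTom-positive cells. Both fractions lay above untreated cells and overlapped each other (-0.30 ± 0.13, adjusted p = 0.0803). The offset turned that direction, to 0.13 (adjusted p = 0.386), with rises of 0.69 in tdTom-positive and 0.56 in tdTom-negative cells. Pold3 did not pass the threshold in any comparison (0.20, 0.08 and 0.13). Pole, the catalytic subunit of polymerase epsilon, read 30.9, 30.03 and 33.8 CPM in untreated, 42.8, 38.2 and 46.2 CPM in tdTom-negative and 58.7, 49.4 and 46.9 CPM in tdTom-positive cells. The 3 groups did not overlap, and Pole rose by 0.71 ± 0.12 (adjusted p = 0.0028) and 0.42 ± 0.12 (adjusted p = 0.021). Between the fractions Pole differed by 0.29 ± 0.12 without passing the threshold (adjusted p = 0.0846, edgeR).

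Replication protein A coats single-stranded DNA at the fork. Rpa2 read 9.91, 11.9 and 6.48 CPM in untreated cells, 32.9, 18.4 and 23.4 CPM in tdTom-negative cells and 29.4, 21.0 and 23.8 CPM in tdTom-positive cells. Both fractions lay above untreated cells by 1.39 on the log2 scale, and the fractions differed by 0.01 ± 0.21 (adjusted p = 0.986; 0.27 with the offset, adjusted p = 0.327). Rpa1 read 41.6, 46.4 and 29.2 CPM in untreated, 71.6, 54.1 and 57.4 CPM in tdTom-negative and 78.6, 60.1 and 57.0 CPM in tdTom-positive cells. It rose by 0.74 ± 0.15 (adjusted p = 0.00636) and 0.65 ± 0.15 (adjusted p = 0.00631). Rpa3, the smallest subunit, had log2 fold changes of 0.43, 0.39 and 0.04 against untreated cells and between the fractions, none past the threshold. With the offset it rose in tdTom-negative cells (1.09, adjusted p = 0.00298) and was lower in tdTom-positive than tdTom-negative cells (-0.63, adjusted p = 0.0301). The Rpa1 call in tdTom-positive cells was lost without the passage 5 untreated library (adjusted p = 0.0507).

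Lig1, the ligase that seals Okazaki fragments, read 18.6, 22.2 and 17.8 CPM in untreated cells, 43.1, 37.2 and 51.3 CPM in tdTom-negative cells and 68.6, 57.1 and 66.8 CPM in tdTom-positive cells. The 3 groups did not overlap, and the log2 fold changes against untreated cells were 1.71 ± 0.15 (adjusted p = 2.56e-05) and 1.16 ± 0.15 (adjusted p = 0.000345). Fen1, the flap nuclease that trims the fragments, read 10.7, 13.3 and 9.01 CPM, then 28.5, 20.7 and 27.5 CPM, then 36.5, 35.5 and 30.4 CPM in the same order, also without overlap. It rose by 1.63 ± 0.17 (adjusted p = 9.55e-05) and 1.22 ± 0.17 (adjusted p = 0.00054). Between the fractions Fen1 differed by 0.41 ± 0.17 without passing the threshold (adjusted p = 0.0755, edgeR). It shares 84.2% of its exon bases with genes on the other strand, among them Tmem258, so its reads may include theirs.

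Of the roles, fork protection had the largest median log2 fold change between the fractions (0.83), with its 3 genes from 0.54 to 2.20. Clspn encodes claspin, the adaptor of the replication checkpoint kinase Chk1. It read 2.03, 2.21 and 1.61 CPM in untreated cells, 3.33, 3.37 and 3.73 CPM in tdTom-negative cells and 16.5, 14.3 and 16.99 CPM in tdTom-positive cells. The lowest tdTom-positive library was far above the highest of the other 6. Its rise over untreated cells was the largest of the 51 genes, 8.17-fold (log2 3.03 ± 0.19, adjusted p = 4.4e-06), and it was 4.59-fold higher than in tdTom-negative cells (log2 2.20 ± 0.18, adjusted p = 9.19e-05), with 0.83 ± 0.19 (adjusted p = 0.00721) between tdTom-negative and untreated cells.

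Timeless and Tipin are partners in the fork protection complex. Timeless read 7.79, 5.18 and 3.37 CPM in untreated, 14.3, 10.5 and 13.2 CPM in tdTom-negative and 28.2, 19.6 and 20.5 CPM in tdTom-positive cells. Tipin read 10.5, 9.197 and 9.41 CPM, then 17.1, 11.4 and 14.8 CPM, then 25.4, 17.2 and 20.3 CPM. Neither gene overlapped between groups. They rose by 2.10 ± 0.20 (adjusted p = 4.56e-05) and 1.10 ± 0.14 (adjusted p = 0.000368) in tdTom-positive cells. In tdTom-negative cells they rose by 1.26 ± 0.20 (adjusted p = 0.000972) and 0.56 ± 0.14 (adjusted p = 0.0113). Between the fractions they differed by 0.83 ± 0.19 (adjusted p = 0.00641, edgeR) and 0.54 ± 0.14 (adjusted p = 0.0108), less than Pola1 or Mcm4.

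Among the genes that carry DNA methylation and nucleosomes past the fork, Uhrf1, which brings the maintenance methyltransferase to hemimethylated DNA, read 14.96, 14.1 and 9.27 CPM in untreated cells, 48.3, 33.9 and 44.6 CPM in tdTom-negative cells and 79.8, 68.2 and 68.0 CPM in tdTom-positive cells. The 3 groups did not overlap. The log2 fold changes were 2.51 ± 0.17 (adjusted p = 5.82e-06) and 1.73 ± 0.17 (adjusted p = 0.000138), with 0.77 ± 0.16 (adjusted p = 0.00375) between the fractions. Dnmt1, that methyltransferase, read 74.3, 57.3 and 58.9 CPM in untreated, 89.5, 89.2 and 93.5 CPM in tdTom-negative and 167, 135 and 135 CPM in tdTom-positive cells and also did not overlap between groups. It rose by 1.20 ± 0.12 (adjusted p = 6.29e-05) and 0.53 ± 0.12 (adjusted p = 0.00667).

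The 2 large subunits of chromatin assembly factor 1, which places histones on new DNA, rose in both fractions. Chaf1a read 52.8, 58.7 and 52.1 CPM in untreated, 82.1, 77.4 and 86.4 CPM in tdTom-negative and 76.3, 73.6 and 74.3 CPM in tdTom-positive cells, with untreated libraries lowest. Chaf1b rose by 1.71 and 1.43, and Chaf1a by 0.46 ± 0.11 (adjusted p = 0.0193) and 0.59 ± 0.11 (adjusted p = 0.00253). Chaf1a shares 52.5% of its exon bases with Ubxn6 on the other strand.

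All 4 nucleotide supply genes rose in tdTom-positive cells. Rrm1, the large subunit of ribonucleotide reductase, read 43.7, 52.6 and 33.2 CPM in untreated cells, 86.7, 69.7 and 74.8 CPM in tdTom-negative cells and 118, 104 and 107 CPM in tdTom-positive cells, without overlap between groups. Its log2 fold changes were 1.36 ± 0.15 (adjusted p = 0.000133) and 0.85 ± 0.15 (adjusted p = 0.00185). Rrm2, the small subunit that limits the enzyme in S phase, read 55.4, 27.0 and 39.6 CPM in untreated cells, 58.7, 31.1 and 55.8 CPM in tdTom-negative cells and 71.9, 59.4 and 69.3 CPM in tdTom-positive cells. Its untreated and tdTom-negative libraries overlapped (0.26 ± 0.15, adjusted p = 0.21), and the tdTom-positive ones lay above both (0.78 ± 0.15 against untreated, adjusted p = 0.00654).

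Tyms, which makes thymidylate, read 11.0, 13.7 and 9.50 CPM in untreated, 32.1, 20.9 and 24.1 CPM in tdTom-negative and 33.4, 37.7 and 29.7 CPM in tdTom-positive cells, so only the fractions overlapped. It rose by 1.56 ± 0.18 (adjusted p = 0.000137) in tdTom-positive cells and 1.18 ± 0.18 (adjusted p = 0.00069) in tdTom-negative cells. Tk1, the S phase thymidine kinase, read 18.9, 13.7 and 25.2 CPM in untreated cells, 26.1, 25.4 and 28.4 CPM in tdTom-negative cells and 32.6, 39.8 and 39.96 CPM in tdTom-positive cells. The 3 groups did not overlap, and the log2 fold changes were 0.99 ± 0.17 (adjusted p = 0.00235) and 0.49 ± 0.17 (adjusted p = 0.0385). The second call ended with the offset (0.13, adjusted p = 0.619).

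**Figure D3:**
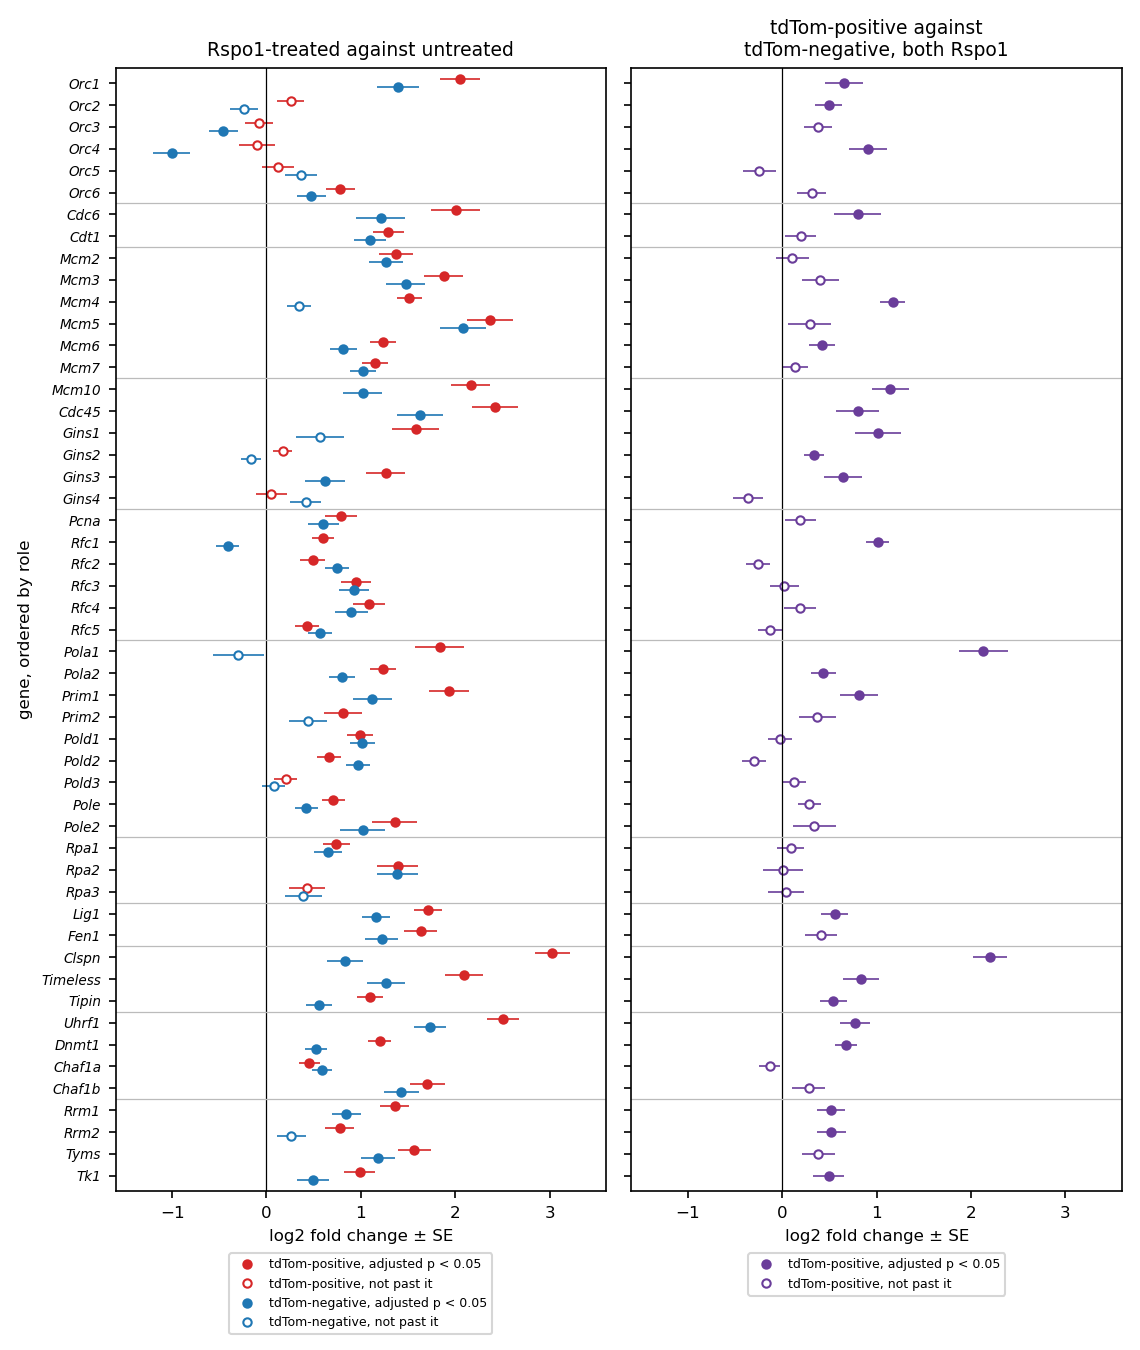
Log2 fold changes ± SE of the 51 genes, ordered by role, for both Rspo1 fractions against untreated cells (left) and for the fractions against each other (right); filled symbols have an adjusted p under 0.05 in edgeR. On the left most genes lie right of 0 in both fractions and Clspn lies farthest right at 3.03, and on the right Clspn (2.20) and Pola1 (2.13) stand out.

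Taking the 3 tests side by side, 21 genes rose in both fractions against untreated cells without a called difference between the fractions, among them Mcm2, Mcm3, Mcm5 and Mcm7. Another 16 rose in both and were also higher in tdTom-positive than tdTom-negative cells, among them Clspn, Uhrf1, Cdc45 and Lig1. A further 4 (Mcm4, Gins1, Pola1 and Rrm2) rose in tdTom-positive cells and were higher there than in tdTom-negative cells, without a call in tdTom-negative against untreated cells. No comparison gave a call for 4 genes (Gins4, Orc5, Pold3 and Rpa3), of which Orc5 and Rpa3 had calls with the offset.

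**Figure D4:**
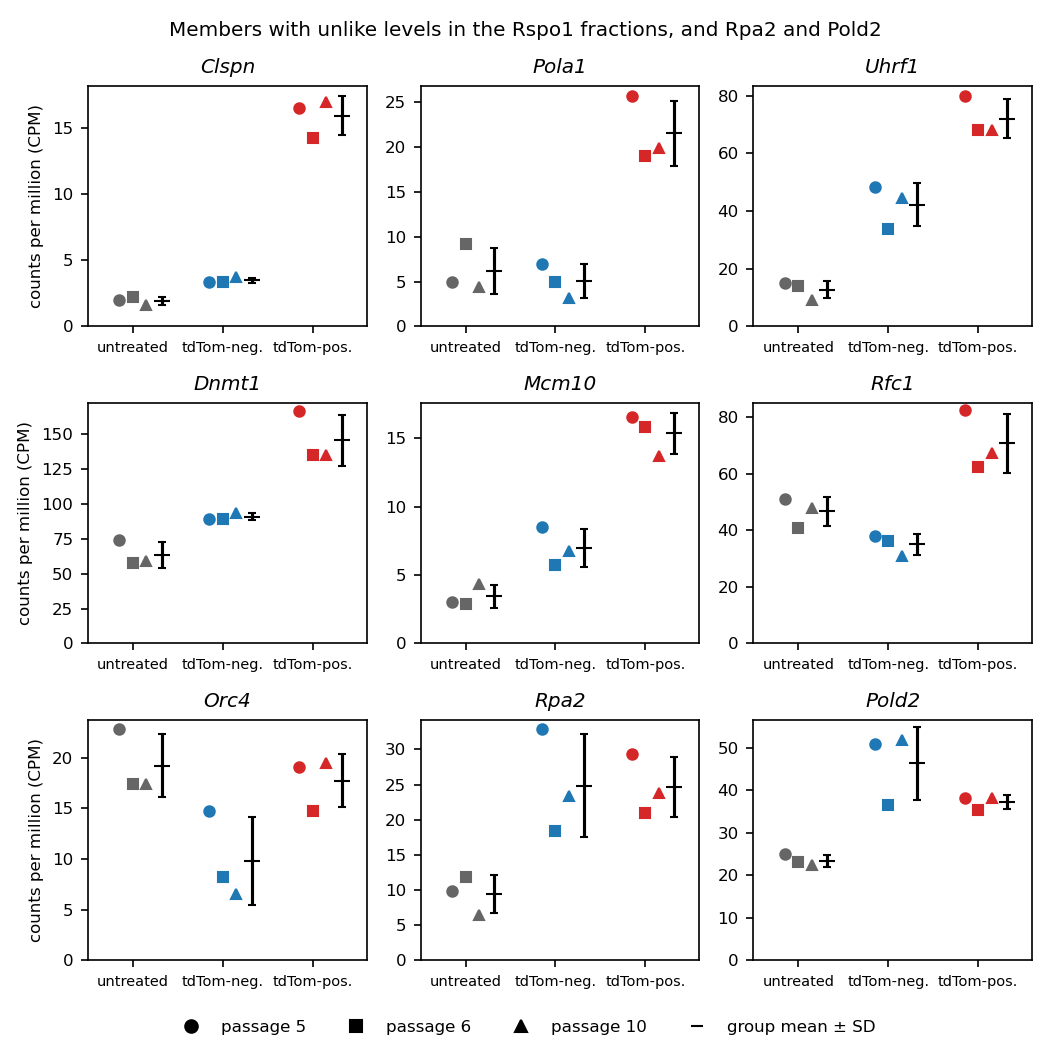
CPM in each library of 9 genes with different orders of the groups, with the group mean ± SD (n = 3) in black and axes from 0. Clspn and Pola1 are high in the tdTom-positive libraries only, and Rfc1 is lowest in the tdTom-negative libraries. Orc4 has its lowest mean in tdTom-negative cells, and Orc4, Rpa2 and Pold2 overlap between the fractions.

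The rises against untreated cells were steadier than the differences between the fractions. Of the 43 calls in tdTom-positive against untreated cells, 36 were past the threshold in each of the 9 fits that left out 1 library, and the other 7 (Pcna, Rfc1, Rfc2, Rfc5, Prim2, Rpa1 and Chaf1a) were not in at least 1. In tdTom-negative against untreated cells 30 of 40 calls were past it in each; the other 10 were Gins3, Orc3, Orc6, Pcna, Rfc1, Rfc5, Pole, Pole2, Tk1 and Tipin. Between the fractions only 8 of 24 were (Mcm4, Mcm10, Orc4, Rfc1, Pola1, Clspn, Uhrf1 and Dnmt1). The number called between the fractions was 11 without the passage 5 tdTom-positive library, 14 without that of passage 6, 11 without that of passage 10 and 13 without the passage 5 tdTom-negative library. Without the passage 6 tdTom-negative library it was 14 higher and 3 lower. Without passage as a block it was 13.

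In both comparisons that involve Rspo1 tdTom-negative cells, fold changes followed the GC content of the transcripts. Across the 17001 tested genes with a known GC content, Spearman's rho of the log2 fold change with GC was -0.51 for tdTom-positive against tdTom-negative cells, 0.49 for tdTom-negative against untreated cells and -0.02 for tdTom-positive against untreated cells. Over the 51 genes, which share the same libraries, it was -0.23, 0.45 and 0.20; their median GC was 49.6%, where that of all tested genes was 50.8%. With an offset for GC and length in the fit, 43 of 43, 35 of 40 and 16 of 24 calls were made again for tdTom-positive against untreated, tdTom-negative against untreated and tdTom-positive against tdTom-negative cells. The 8 calls between the fractions that were not were Mcm6, Cdc6, Orc1, Orc2, Orc4, Prim1, Rrm1 and Rrm2, and 8 others appeared, of which Mcm2, Mcm3, Cdt1, Fen1, Tyms and Chaf1b were higher in tdTom-positive cells and Orc5 and Rpa3 lower. In tdTom-negative against untreated cells the calls that ended were Gins3, Orc3, Orc4, Rfc1 and Tk1, and those that appeared were the rises of Mcm4, Orc5, Prim2 and Rpa3 and the fall of Gins2. Medians over the 51 with the offset were 1.21, 0.74 and 0.45 in the same order.

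Shared exons touched 14 of the 51 genes at more than 5% of their exon bases. Without these 14, 32 of the remaining 37 rose in tdTom-positive against untreated cells and none fell, 26 rose and 2 fell in tdTom-negative against untreated cells, and 18 were higher and none lower between the fractions.

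Few of the 51 genes passed the threshold between passages, but in the fit over all groups most stood lower at passages 6 and 10 than at passage 5. The groups were not alike in this. In untreated cells the mean log2 CPM of the 51 was 3.94 at passage 5 and 3.95 at passage 6. From passage 5 to passage 6 it went from 4.82 to 4.31 in tdTom-negative cells and from 5.16 to 4.92 in tdTom-positive cells. From passage 5 to passage 6, 4 of the 51 had a positive log2 fold change, and 6 did from passage 5 to passage 10. Of the 17011 genes tested, 8552 and 8615 did. With all groups in the fit, 3 of the 51 (Mcm4, Mcm6 and Rrm2) differed between passages, where 12.0% of all tested genes did. From passage 5 to passage 6 only Rrm2 passed the threshold, lower by -0.74 ± 0.15 (adjusted p = 0.0328), where 1.16% of all genes were higher and 1.33% lower, and the median of the 51 was -0.24. From passage 5 to passage 10, Mcm4, Mcm6 and Orc5 were lower (-0.53, -0.57 and -0.61) and none higher, where 4.57% of all genes were higher and 4.50% lower; the median was -0.25. Each passage is 1 set of cultures, so passage and culture date cannot be told apart, and the count ranged from 0 to 17 when 1 library was left out: it was 0 without the untreated or the tdTom-negative library of passage 5 or the tdTom-positive one of passage 10, 1 without the tdTom-positive library of passage 5 or 6, 5 without the tdTom-negative and 17 without the untreated library of passage 6.

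Genes of mitosis behaved differently over the passages. A reference list of 25 (among them Ccnb1, Cdk1, Top2a and Mki67) had 25 rises in tdTom-positive against untreated cells, 19 rises and 1 fall in tdTom-negative against untreated cells and 25 genes higher between the fractions, with medians of 2.95, 1.42 and 1.53. Of all genes tested, 6.44%, 15.5% and 21.5% were higher in these comparisons and 6.77%, 20.0% and 17.4% lower. From passage 5 to passage 6, 20 of the 25 were higher (median 1.23), where 1.16% of all genes tested were. From passage 6 to passage 10, 10 of the 25 were lower and none higher (median -0.73). Of the 17011 genes tested, 689 were lower and 749 higher in that step. The mean log2 CPM of the 51 replication genes at passages 5, 6 and 10 was 3.94, 3.95 and 3.61 in untreated cells, 4.82, 4.31 and 4.56 in tdTom-negative cells and 5.16, 4.92 and 4.98 in tdTom-positive cells. That of the mitosis list was 1.55, 3.21 and 2.11, then 2.96, 3.85 and 3.54, then 4.67, 5.74 and 5.11. The replication genes minus the mitosis list gave 2.39, 0.74 and 1.51 in untreated cells and 1.86, 0.46 and 1.02 in tdTom-negative cells. In tdTom-positive cells the values were 0.49, -0.82 and -0.13. The tdTom-positive library thus had the lowest signed value at each passage, negative at passages 6 and 10.

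**Figure D5:**
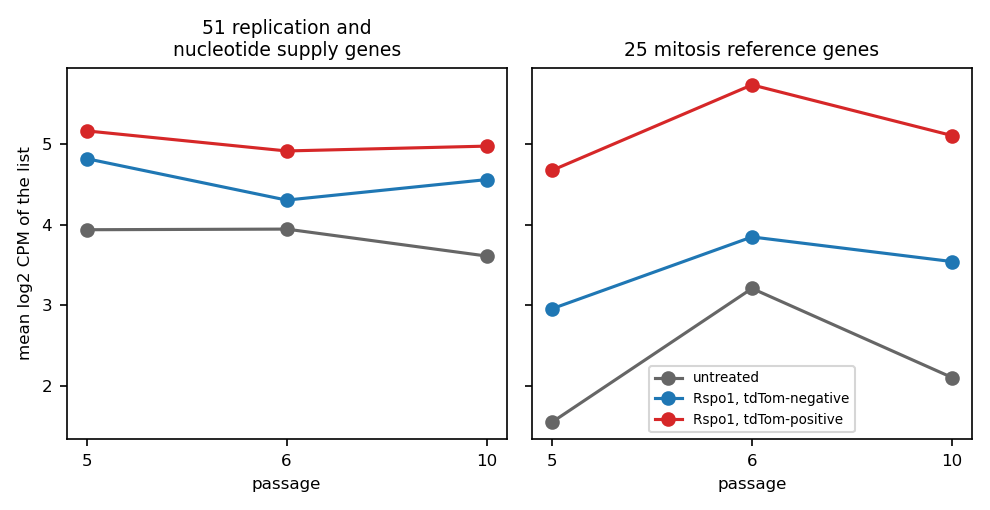
Mean log2 CPM (prior count 2) of the 51 replication and nucleotide supply genes (left) and of 25 mitosis genes (right) at passages 5, 6 and 10, with 1 line per group and 1 library per point. The 51 genes stay within 3.61 to 5.16, and the mitosis list peaks at passage 6 in each group.

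The wider set of 46 other replication and nucleotide genes gave 28 rises and 2 falls in tdTom-positive against untreated cells, 24 rises and 6 falls in tdTom-negative against untreated cells, and 25 higher and 4 lower genes between the fractions, with medians of 0.72, 0.42 and 0.61. Over all genes tested, 6.44%, 15.5% and 21.5% were higher and 6.77%, 20.0% and 17.4% lower in the same order. With the GC and length offset the medians were 0.70, 0.41 and 0.37, and 22 genes were higher and 1 lower between the fractions. In tdTom-positive against untreated cells the largest rises in this set were Ticrr (2.80), a partner in helicase activation, and Dscc1 (2.72), of an alternative clamp loader. The falls were Cmpk1 (-0.67), a nucleoside monophosphate kinase, and Pold4 (-0.60), the smallest subunit of polymerase delta.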

How the data were processed

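Gene expression was measured by single-end sequencing (75 bp, 100 ng of total RNA) in 9 libraries, 3 per group, per the labels. Each deposited file lists a raw read count and an FPKM value for every gene, per the file headers. The deposited counts entered every test, and the FPKM made by the authors serve only to compare levels between genes. The submitters' processing notes name Trimmomatic 0.35, FastQC 0.11.2, STAR 2.5.1b, featureCounts, DESeq2 and the build GRCm38. The annotation release, the strand setting and the treatment of reads with several matches are not given in the sources used here.

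Counts were fitted in R 4.3.3 with edgeR 4.0.16: filterByExpr (minimum count 10, minimum total 15), TMM scaling, all 9 libraries in 1 quasi-likelihood fit of group and passage, F-tests per comparison, Benjamini-Hochberg adjustment over 17011 genes and a threshold of 0.05. SE is the log2 fold change divided by the square root of F. Exon overlaps, GC content and length came from GENCODE vM21 (GRCm38), and figures were drawn with Python 3.11.15. The script was tested on simulated counts. Passage pairs the libraries: after removal of group means the correlation was 0.123 to 0.573 in the 9 pairs of 1 passage and -0.476 to 0.0826 in the 18 other pairs. The alternatives were a fit with no block, DESeq2 1.42.0 with median-of-ratios, RLE and upper-quartile scaling, no filter, the 6 libraries compared only, a GC and length offset (mgcv 1.9.3), leaving out each library and, added after the data were seen, each passage and, for promoters, the first listed window alone.

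Values per library are given for Mcm2-7, for the 4 largest and 3 smallest fold changes per comparison, for calls against the majority and for representatives of each role. The members and lists were chosen with earlier results of these data known. The authors' tables of comparisons were not used here.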

Additional observations from a re-analysis of the deposited data

How the results depend on the processing

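With the passage block, 43, 24 and 40 of the 51 genes were called for tdTom-positive against untreated, tdTom-positive against tdTom-negative and tdTom-negative against untreated cells. With no replicate block the counts were 37, 13 and 33, and with the GC and length offset and no replicate block the count between the fractions was 14. Leaving out 1 library gave 38 to 44, 11 to 32 and 31 to 44. Without passage 5 the counts were 6 between the fractions and 20 for tdTom-negative against untreated cells, and without passage 10 the first was 11. The count of 3 for passage was 13 with no filter and 0 to 17 with 1 library left out. Over all genes, the block gave 2247, 6624 and 6039 calls and the fit with no block 886, 4141 and 3724; with the GC and length offset and the block the second was 4332. Upper-quartile scaling turned the 2643 higher and 3396 lower genes of tdTom-negative against untreated cells into 3573 and 3022.

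Of 1632 repeats of 96 named gene values, 1438 kept direction and side of the threshold, 137 fell short of it, 31 newly passed it and 26 changed sign; none of the 26 was past the threshold in either fit. Between the fractions, the sign changed for Pcna with the offset (-0.25, and -0.26 with no block), Rfc2 (0.028 and 0.021) and Pold2 (0.13 and 0.13), and for Rpa2 with no block (-0.0095), DESeq2 (-0.027), RLE scaling (-0.028), upper-quartile scaling (-0.043) and no filter (-0.034). Pola1 in tdTom-negative against untreated cells was 0.28 with the offset and 0.27 with the offset and no block. With 1 library left out, ranges crossing 0 were -0.068 to 0.29 (Gins4), -0.19 to 0.044 (Orc3) and -0.35 to 0.069 (Orc4) for tdTom-positive against untreated cells, -0.61 to 0.12 for Pola1 in tdTom-negative cells, and between the fractions -0.081 to 0.23 (Mcm2), -0.0039 to 0.43 (Mcm5), -0.032 to 0.21 (Mcm7), -0.0064 to 0.29 (Pcna), -0.053 to 0.16 (Rpa1), -0.23 to 0.14 (Rpa2). The cause of these changes was not tested. The lowest count of any of the 51 genes in any library was 26 (Orc1); the part of depth in the calls was not tested.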

Other observations

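Reference genes of the S phase switch were measured beside the 51. Ccne1, a cyclin of the step into S phase, averaged 2.70 ± 1.33 CPM in untreated cells, 5.96 ± 1.83 CPM in tdTom-negative cells and 8.19 ± 1.03 CPM in tdTom-positive cells (SD, n = 3 each), with log2 fold changes against untreated cells of 1.19 ± 0.24 and 1.68 ± 0.24. Ccne2, its paralogue, averaged 3.47 ± 1.05, 2.79 ± 1.41 and 6.41 ± 1.22 CPM; it rose in tdTom-positive cells (0.92 ± 0.25, adjusted p = 0.0336, edgeR) and not past the threshold in tdTom-negative cells (-0.35 ± 0.26, adjusted p = 0.323). E2f1, an activating E2F factor, averaged 9.004 ± 1.01, 13.6 ± 1.30 and 18.9 ± 3.18 CPM and rose in both fractions (0.59 ± 0.15 and 1.07 ± 0.15). Mki67, a marker of dividing cells, averaged 18.8 ± 7.99, 24.7 ± 13.7 and 220 ± 67.3 CPM, with untreated and tdTom-negative libraries overlapping (0.36 ± 0.19, adjusted p = 0.168); of the whole list of 25 mitosis genes, 19 rose between those groups.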
